A study of Homo sapiens with 54 samples.

Results

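*A1BG* and its antisense neighbour *A1BG-AS1* were followed through 54 RNA-sequencing libraries, as 2 of the 55906 gene rows of each deposited table. Both genes were selected on their own TPM values, which are higher with *TRA2B* KD and with *TRA2A/B* dual KD than with Control KD in the lung lines, so the values of those comparisons are given as a description and without a test. The study depleted the paralogous splicing factors *TRA2A* and *TRA2B* in 4 human cancer cell lines and sequenced polyadenylated RNA from 18 conditions with 3 replicate libraries each. A549 and NCI-H23 are lung cancer lines that stably carried Zim3-dCas9, a Cas9 that does not cut and that represses the promoter a guide points to (CRISPRi). Their 4 conditions were Control KD with guides to control loci, KD of *TRA2A* alone, KD of *TRA2B* alone and dual KD of both genes, all collected 5 days after the guides were introduced. LN229 and LN319 are glioma lines that carried Cas9 with luciferase (Luc) or with a *TRA2B* cDNA (TRA2B-OE) and were collected on day 7. Their 5 conditions were Luc Control KO, Luc *TRA2A* KO, Luc *TRA2B* KO, TRA2B-OE Control KO and TRA2B-OE *TRA2A* KO. Whether replicate libraries came from separate cultures is not stated, so each p-value measures the spread between these libraries only. In bulk RNA fewer cells that express a gene and less RNA per cell cannot be told apart.

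*A1BG* encodes a secreted glycoprotein of blood plasma that belongs to the immunoglobulin superfamily and is made mainly by the liver, and its function is poorly understood. *A1BG-AS1* is a long non-coding RNA read from the opposite strand of the same locus. TRA2A and TRA2B are SR-like proteins that bind purine-rich motifs, with AGAA at their core, and promote the inclusion of the exons that hold them.

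The pair lies near the end of the long arm of chromosome 19, among many zinc finger genes. On GRCh38 in Gencode v44, *A1BG* (ENSG00000121410.12, protein coding) spans chr19:58345178-58353492 on the minus strand and has 5 annotated transcripts, 2 of them with a retained intron. *A1BG-AS1* (ENSG00000268895.6, lncRNA) spans chr19:58347718-58355455 on the plus strand and has 9 transcripts. The gene bodies overlap over 5775 bases, and 963 exonic bases are shared, which is 24.1% of the exonic bases of *A1BG* and 28.5% of those of *A1BG-AS1*. *A1BG-AS1* starts inside *A1BG*, 7 of its transcripts in a first cluster of starts and 2 in a second cluster 1522 bases downstream of the *A1BG* start, and runs out across the *A1BG* start. The libraries were directional, but the strand setting of the quantification is not given in the sources used here. How reads of the shared exonic bases were divided between the 2 genes is therefore uncertain, and the paired levels carry that limit throughout.

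**Figure D1:**
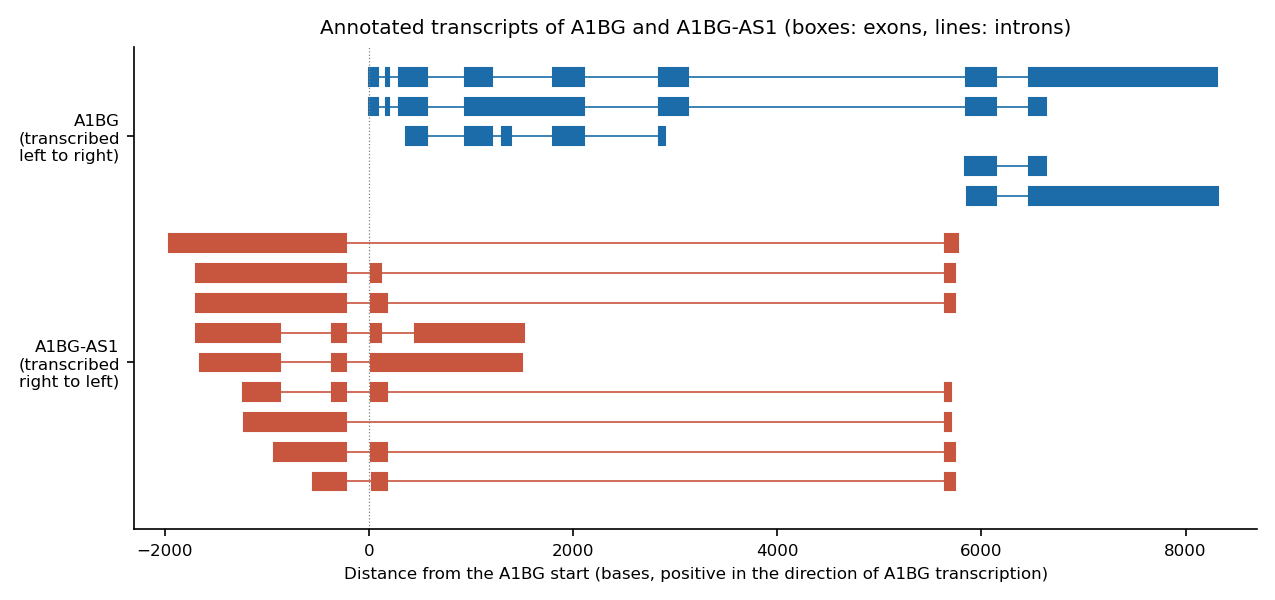
Annotated transcripts of *A1BG* (blue, 5) and *A1BG-AS1* (red-orange, 9) against the distance in bases from the *A1BG* start, with exons as boxes and introns as lines. The first exon of *A1BG* sits opposite an exon of several *A1BG-AS1* transcripts, and the 2 genes overlap over 5775 bases.

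The stretch upstream of *A1BG* is shown because *A1BG* starts at its end and *A1BG-AS1* is transcribed across it. The 250 bases upstream of the *A1BG* start, from the RefSeq promoter table on GRCh38.p14 (chr19:58353493-58353742, minus strand), read 5′ to 3′ as follows, with capitals marking the 29 bases that belong to an *A1BG-AS1* exon.
A1BG upstream: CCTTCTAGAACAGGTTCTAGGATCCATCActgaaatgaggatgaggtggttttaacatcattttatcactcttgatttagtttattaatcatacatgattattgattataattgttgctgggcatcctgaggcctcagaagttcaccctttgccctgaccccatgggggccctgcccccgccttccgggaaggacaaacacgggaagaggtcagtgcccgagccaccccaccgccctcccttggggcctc
The window held no TATAAA, which 10.7% of 35116 promoters of the same length hold on either strand, and no CCAAT, which 32.0% hold. GGGCGG occurred once, on the other strand, as it does at least once in 42.6% of promoters. Its GC content was 50.8% against a median of 58.0%, and it held 5 CpG dinucleotides against a median of 11. In the main *A1BG* transcript (8 exons, 3382 bases) AGAA occurred 9 times, or 2.66 times per kb, against a median of 7.13 per kb over the longest protein-coding transcript of each of 19399 genes (500 bases or more), of which 5.76% had a lower density. No GAAGAA was found in it. These matches are descriptions of the letters only. The CRISPRi guides were set against 20-base sites next to an NGG, within 2000 bases of the *A1BG* start or of the second *A1BG-AS1* start cluster. The closest match of the *TRA2B* guides there had 7 mismatches, and that of the *TRA2A* guides, also present in the dual KD, had 6. The first cluster of *A1BG-AS1* starts lay outside that search. Within 250000 bases of *A1BG* on either side, the fewest mismatches were 6 for the *TRA2B* guides and 4 for the *TRA2A* guides.

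The targeted genes were lower than in the controls, without overlap, in all comparisons but 1. In the KD conditions *TRA2A* mRNA was lower than in Control KD by 79.5 to 93.5% and *TRA2B* mRNA by 74.8 to 90.3%. In the glioma lines Cas9 cuts the gene and can leave its mRNA, and *TRA2A* mRNA in Luc *TRA2A* KO was lower by 37.1% in LN229 and 66.8% in LN319, and *TRA2B* mRNA in Luc *TRA2B* KO by 34.02% and 64.9%. Under TRA2B-OE, *TRA2A* KO libraries held 47.2% less *TRA2A* mRNA than their controls in LN319, and in LN229 12.8% less with overlapping libraries, so that the mRNA does not check that label. TRA2B-OE Control KO held 3.74-fold (LN229) and 8.73-fold (LN319) the *TRA2B* mRNA of Luc Control KO, cDNA included. Markers of the labelled tissue were partly absent: the lung markers *NKX2-1*, *SFTPB* and *SFTPC* summed to at most 1.52 TPM in any A549 or NCI-H23 library. *KRT8* and *KRT18*, keratins of simple epithelia, were at 445 TPM or more in all of them. The other epithelial markers were lower, with *EPCAM*, *CDH1* and *KRT19* at most 3.77, 25.2 and 26.7 TPM in A549 and 1.74, 2.47 and 0.604 TPM in NCI-H23. The glioma line LN319 also held epithelial markers, with *CDH1* at 116 to 150 TPM and *KRT8* at 89.3 to 128 TPM, but *EPCAM* at most 1.31 TPM. The glial markers *GFAP*, *S100B*, *OLIG2*, *SOX2* and *NES* all averaged at least 1 TPM in each LN229 condition, and 3 of the 5 did so in each LN319 condition. *A1BG* passed the filter on low values (1 TPM or more in 4 or more of a line's libraries) in all 4 lines, and *A1BG-AS1* in 3 of them, not in LN319.

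The level of *A1BG* differed widely between the cell lines. Across the 15 LN229 libraries it ranged from 24.7 to 44.4 TPM with a median of 34.8, while in the 15 LN319 libraries it ranged from 0.379 to 1.98 TPM with a median of 0.703. A549 spanned 0.478 to 19.4 TPM and NCI-H23 0.465 to 9.08 TPM, 40.5-fold and 19.5-fold from lowest to highest. TPM is a length-corrected share of transcripts, set to a common total in each library, and the tables of the lines were made separately, so the order across lines is a description. Among the 18 conditions the 5 of LN229 came first, with means of 31.7 to 38.9 TPM, and each overlapped the next in that order. A549 *TRA2B* KD followed at 18.3 TPM and A549 dual KD at 14.7, then NCI-H23 *TRA2B* KD at 8.20 and NCI-H23 dual KD at 7.11, and none of these 4 overlapped the condition before or after it. The other 9 conditions lay at or below 2.11 TPM, and of the 8 steps between them only that from LN319 Luc *TRA2B* KO down to LN319 Luc *TRA2A* KO showed no overlap.

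*A1BG-AS1* followed a similar order at a lower level. The 5 LN229 conditions had means of 3.51 to 4.74 TPM, with A549 dual KD at 3.96 TPM among them. A549 *TRA2B* KD (2.52 TPM), NCI-H23 dual KD (2.14 TPM) and NCI-H23 *TRA2B* KD (1.34 TPM) came next. In LN319 it lay between 0 and 0.401 TPM, at 0 in 4 of the 15 libraries and at 1 TPM or more in none. Of the 17 steps in its order 15 showed overlapping libraries, against 11 of 17 for *A1BG*.

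**Figure D2:**
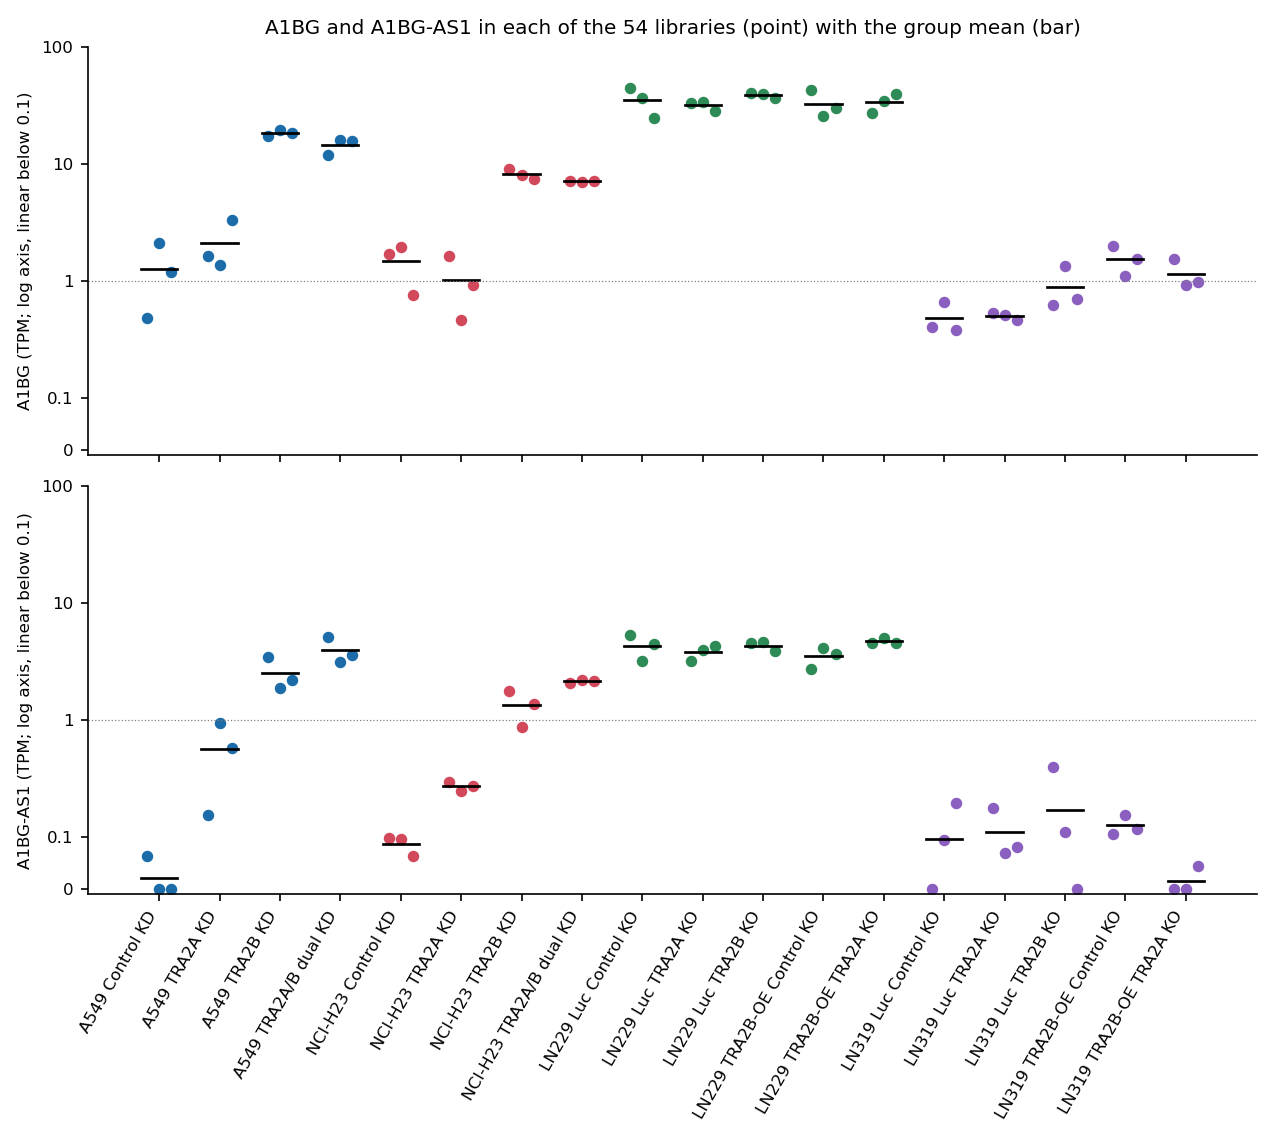
TPM of *A1BG* (top) and *A1BG-AS1* (bottom) in every library (points) of the 18 conditions, with the mean as a bar, on a log axis that is linear below 0.1 TPM. Within each lung line the *TRA2B* KD and dual KD libraries stand above the other libraries of that line for both genes, while the 15 LN229 libraries stay between 24.7 and 44.4 TPM for *A1BG*.

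In A549, *A1BG* stood at 0.478, 2.13 and 1.19 TPM in the 3 Control KD libraries (1.26 ± 0.826, mean ± SD, n = 3). With *TRA2B* KD it was 17.2, 19.4 and 18.3 TPM (18.3 ± 1.08), and with dual KD 12.002, 16.1 and 15.8 TPM (14.7 ± 2.30). Every library of both conditions was above every control library, and these are the values on which the gene was chosen. The ratio of the means was 14.5 for *TRA2B* KD and 11.6 for dual KD. On the log2(scaled TPM + 0.1) scale of the fits the differences were 4.04 ± 0.44 (SE) and 3.55 ± 0.44. Among all genes 0.341% were called with *TRA2B* KD, that is, had an adjusted p under 0.05 in limma, and 30.6% with dual KD.

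NCI-H23 started from a like level and reached a lower one. Control KD libraries held 1.70, 1.94 and 0.755 TPM of *A1BG* (1.47 ± 0.627), *TRA2B* KD libraries 9.08, 8.10 and 7.42 TPM (8.20 ± 0.833) and dual KD libraries 7.21, 6.95 and 7.18 TPM (7.11 ± 0.141). Again no library of either condition overlapped the controls, with ratios of the means of 5.60 and 4.85. The fitted log2 differences were 2.39 ± 0.39 and 2.15 ± 0.39, where 0.196% and 43.2% of all genes were called. In both lines *A1BG* was somewhat lower with dual KD than with *TRA2B* KD, 0.802 times in A549 and 0.867 times in NCI-H23, without overlap between the libraries and without a test.

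*A1BG-AS1* was at or near 0 TPM in the controls of both lines. A549 Control KD libraries held 0.0639, 0 and 0 TPM, against 3.46, 1.89 and 2.21 TPM with *TRA2B* KD and 5.10, 3.15 and 3.63 TPM with dual KD. In NCI-H23 the controls held 0.0974, 0.0963 and 0.0642 TPM, *TRA2B* KD 1.77, 0.868 and 1.38 TPM, and dual KD 2.06, 2.22 and 2.14 TPM. No KD library of these conditions overlapped a control library. The fitted log2 differences were 4.47 and 4.95 in A549 (SE 0.58) and 2.83 and 3.48 in NCI-H23 (SE 0.45), and since the controls are near 0 they depend on the pseudocount. With 1 TPM added in place of 0.1, they were 1.79, 2.17, 1.05 and 1.47.

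Between *TRA2B* KD and dual KD the antisense transcript differed in the direction opposite to *A1BG*. Its mean was 1.57 times higher with dual KD than with *TRA2B* KD in A549, with overlapping libraries, and 1.60 times higher in NCI-H23, without overlap. As a percent of the *A1BG* level in the same library, *A1BG-AS1* stood at 20.1, 9.76 and 12.1% with *TRA2B* KD in A549 and at 42.5, 19.5 and 22.9% with dual KD. In NCI-H23 it stood at 19.5, 10.7 and 18.6% with *TRA2B* KD and at 28.6, 31.9 and 29.8% with dual KD. The higher dual KD percents did not overlap those of *TRA2B* KD in NCI-H23, and overlapped narrowly in A549. High percents were not limited to dual KD. With *TRA2A* KD, where both genes are low, the percent stood at 9.34, 69.8 and 17.5% in A549 and at 18.1, 53.4 and 29.1% in NCI-H23. It was at or below 13.4% in Control KD of both lines. In LN229, where both genes are expressed in Luc Control KO as well, the percent lay between 6.35 and 17.97% over the 15 libraries of all conditions. In LN319, where both are low, it reached 64.8% in 1 library and was 0 in others. Because the *TRA2B* KD and dual KD contrasts served to choose the genes, none of these differences was tested.

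Whether loss of *TRA2A* alone moves the pair was not part of the choice, although the control libraries are the same. With *TRA2A* KD, *A1BG* was at 1.65, 1.36 and 3.32 TPM in A549 and at 1.63, 0.465 and 0.930 TPM in NCI-H23, and in both lines these overlapped Control KD. The log2 difference was 0.94 in A549 (95% interval -0.03 to 1.92, limma adjusted p = 0.456) and -0.54 in NCI-H23 (95% interval -1.41 to 0.33, limma adjusted p = 0.604). *A1BG-AS1* was at 0.154, 0.952 and 0.582 TPM in A549 and at 0.294, 0.248 and 0.271 TPM in NCI-H23. All 3 *TRA2A* KD libraries of each line were above all 3 of its controls, by 2.34 on the log2 scale in A549 (95% interval 1.05 to 3.62, limma adjusted p = 0.198) and by 1.03 in NCI-H23 (95% interval 0.04 to 2.01, limma adjusted p = 0.343). Neither gene was called in either line, where 0.207% and 0.976% of all genes were. *A1BG-AS1* passed the filter through *TRA2B* KD and dual KD libraries only, 6 in A549 and 5 in NCI-H23, and was therefore tested here because of the groups that chose it. In NCI-H23 the same holds for *A1BG*. It passed there with 9 libraries, among them all those of *TRA2B* KD and dual KD, and would not have passed without these. In A549 its Control KD and *TRA2A* KD libraries were enough to pass. All *TRA2A* KD and Control KD values of *A1BG-AS1* lie under 1 TPM in both lines, and the number of reads behind them is unknown. With 1 TPM added in place of 0.1, the differences of *A1BG-AS1* were 0.61 in A549 and 0.24 in NCI-H23. An exact permutation test of 1 gene in 3 against 3 libraries, two-sided, could not give a p below 0.1.

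In LN229, the line with the highest *A1BG*, no perturbation moved either gene past the threshold. *A1BG* was at 44.4, 36.4 and 24.7 TPM in Luc Control KO, at 33.0, 33.8 and 28.2 TPM in Luc *TRA2A* KO and at 40.4, 39.4 and 37.0 TPM in Luc *TRA2B* KO. TRA2B-OE Control KO held 42.9, 25.7 and 29.8 TPM and TRA2B-OE *TRA2A* KO 27.1, 34.8 and 39.7 TPM. All 5 groups overlapped their comparators, the log2 differences lay between -0.13 and 0.14, and their 95% intervals between -0.61 and 0.62. *A1BG-AS1* stayed between 2.72 and 5.34 TPM. Its only separated groups were TRA2B-OE *TRA2A* KO (4.57, 5.08 and 4.56 TPM) above TRA2B-OE Control KO (2.72, 4.11 and 3.68 TPM) and above Luc *TRA2A* KO (3.18, 3.97 and 4.28 TPM). The log2 differences were 0.42 (95% interval -0.01 to 0.85, limma adjusted p = 0.238) and 0.24 (95% interval -0.19 to 0.67, limma adjusted p = 0.520).

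In the same line 3.68% of all genes were called with Luc *TRA2A* KO, 0.568% with Luc *TRA2B* KO, 1.03% with TRA2B-OE, 6.07% with *TRA2A* KO under TRA2B-OE and 7.64% between TRA2B-OE *TRA2A* KO and Luc *TRA2A* KO. The effect of *TRA2A* KO with TRA2B-OE less that with Luc was 0.14 for *A1BG* (95% interval -0.54 to 0.81) and 0.56 for *A1BG-AS1* (95% interval -0.05 to 1.17). For this difference of effects limma called 0% of genes, while 1051 of 18490 had an unadjusted p under 0.05. The method, the day and the line all differed from the lung experiment, and their parts cannot be told apart.

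LN319 held little *A1BG*, and here the one call was in TRA2B-OE Control KO. *A1BG* was at 0.406, 0.654 and 0.379 TPM in Luc Control KO and at 1.98, 1.10 and 1.53 TPM in TRA2B-OE Control KO, with no overlap, a ratio of the means of 3.20 and a log2 difference of 1.41 (95% interval 0.67 to 2.16, limma adjusted p = 0.0399). In this comparison 4.31% of all genes were called. *A1BG* passed the filter in LN319 with 5 libraries, 3 of them from TRA2B-OE Control KO, and would not have been tested without the group where it is high. The call was the only one for *A1BG* among its 14 tested comparisons, 2 of which had an unadjusted p under 0.05. It was lost when any 1 of the 6 libraries was left out (limma adjusted p = 0.0510 to 0.161), when only these groups were fitted (0.149), without a filter on low values (0.0605) and with quantile normalization (0.0594), and was kept under the other alternatives with a value (limma adjusted p = 0.0353 to 0.0392). With *TRA2A* KO the overexpressing cells again held more *A1BG*, at 1.55, 0.926 and 0.980 TPM in TRA2B-OE *TRA2A* KO against 0.527, 0.507 and 0.465 TPM in Luc *TRA2A* KO. These groups did not overlap either, with a log2 difference of 0.97 (95% interval 0.23 to 1.72, limma adjusted p = 0.0893) where 10.7% of genes were called.

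Depletion did not move *A1BG* past the threshold in LN319. Luc *TRA2B* KO held 0.618, 1.34 and 0.703 TPM, overlapping Luc Control KO, with a log2 difference of 0.63 (95% interval -0.11 to 1.38, limma adjusted p = 0.158), although 42.6% of all genes were called. Luc *TRA2A* KO differed from its control by 0.11 (95% interval -0.63 to 0.86, limma adjusted p = 0.881) where 14.3% were called. TRA2B-OE *TRA2A* KO differed from TRA2B-OE Control KO by -0.33 (95% interval -1.08 to 0.41, limma adjusted p = 0.675) where 2.77% were called. For the difference of the *TRA2A* KO effects the value was -0.44 (95% interval -1.49 to 0.61), and 0.0207% of genes were called. *A1BG-AS1* was too low here to be fitted. It was at 0, 0.0941 and 0.196 TPM in Luc Control KO, at 0.401, 0.111 and 0 TPM in Luc *TRA2B* KO and at 0, 0 and 0.0443 TPM in TRA2B-OE *TRA2A* KO. Over its 8 tested comparisons in the other lines *A1BG-AS1* was called by limma in 0, and had an unadjusted p under 0.05 in 2.

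**Figure D3:**
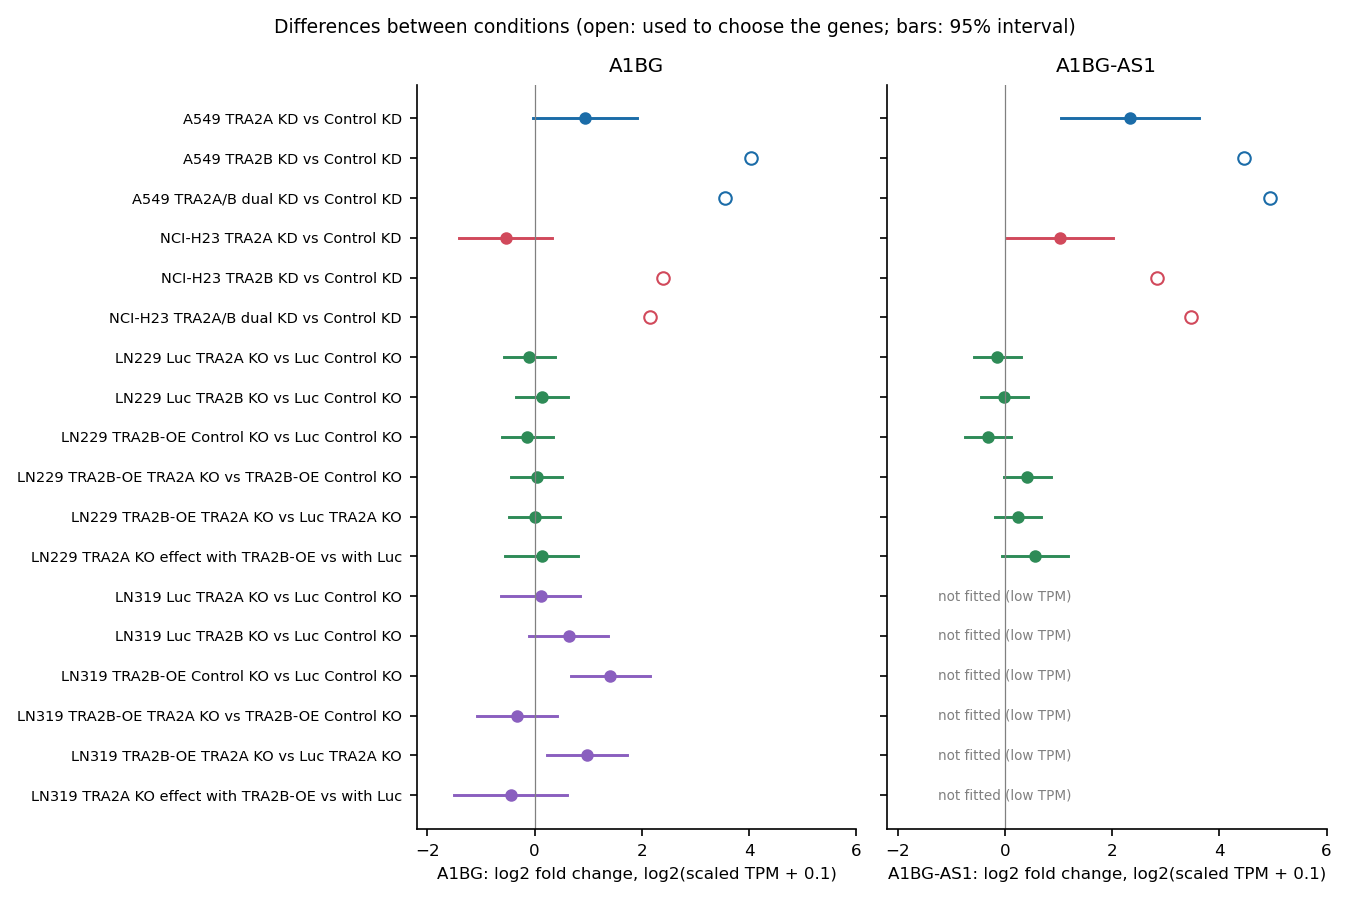
Log2 differences of *A1BG* (left, 18 comparisons) and *A1BG-AS1* (right, 12 comparisons, LN319 not fitted) on the log2(scaled TPM + 0.1) scale, with 95% intervals for those that were tested and open circles for those that chose the genes. In A549 and NCI-H23 the open circles lie between 2.15 and 4.95, whereas the LN229 points lie between -0.32 and 0.56.

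Genes around the pair were examined next. Of 56 annotated genes within 250000 bases of *A1BG*, 31 are in the tables and 23 to 25 were kept in a line. With *TRA2B* KD, limma called 0 of 24 kept neighbours in A549 and 0 of 23 in NCI-H23, where 0.341% and 0.196% of all genes were called and a count of 0 is near that background. An unadjusted p under 0.05 was found for 5 and 0 of them, and their median log2 differences were -0.01 and 0.02, against 0.03 and 0.00 over all genes. The nearest kept genes on either side were not called. *ZSCAN22*, a zinc finger gene 2846 bases away, was at 2.07, 1.90 and 4.07 TPM in A549 Control KD and, without overlap, at 1.52, 1.43 and 1.54 TPM with *TRA2B* KD, a log2 difference of -0.64 (limma adjusted p = 0.356), and differed by -0.04 in NCI-H23 (limma adjusted p = 0.968). *ZNF497*, a zinc finger gene 865 bases away that overlaps the end of *A1BG-AS1* by 1099 bases, differed by -0.19 in A549 (limma adjusted p = 0.809) and was not kept in NCI-H23. The neighbours farthest from their controls in A549 were not called either. *RN7SL525P*, an RN7SL pseudogene, differed by -4.85 in A549 and -2.05 in NCI-H23. *RPS15AP36*, a processed pseudogene that can share reads with its parent, was at 0 TPM in all 3 A549 controls and at 3.61, 0.434 and 1.75 TPM with *TRA2B* KD, and was not called (limma adjusted p = 0.131).

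With dual KD, 6 of 24 neighbours rose and 2 fell in A549, where 30.6% of all genes were called, and 4 of 23 rose and 2 fell in NCI-H23, where 43.2% were, with medians of 0.10 and -0.05 against 0.03 and 0.02 over all genes. In A549 the 8 calls became 5 when only the compared groups were fitted. *MZF1-AS1*, another antisense RNA about 205633 bases away, rose in both lines, from 3.80, 3.99 and 5.57 to 18.8, 16.9 and 16.2 TPM in A549 and from 1.09, 0.536 and 0.129 to 2.30, 2.47 and 2.43 TPM in NCI-H23. The zinc finger genes *ZNF329* (1.70 in A549, 0.69 in NCI-H23) and *ZNF544* (0.68 and 0.46) rose in both lines on the log2 scale, and *TRIM28*, a corepressor recruited by zinc finger proteins, fell in both (-0.64 and -0.36). *ZNF274*, *ERVK3-1* and *RPS15AP36* rose and *RN7SL525P* fell in A549, while *ZSCAN18* rose in NCI-H23. The nearest gene *ZSCAN22* was not called in either line (0.23 and 0.40).

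In LN319, 7 of 25 kept neighbours rose and 4 fell with Luc *TRA2B* KO, where 42.6% of all genes were called, and 5 rose with Luc *TRA2A* KO, where 14.3% were, among them *ZSCAN22* by 0.35 and 0.31 (limma adjusted p = 0.00576 and 0.0285) and *MZF1-AS1* by 0.47 and 1.03. *CHMP2A*, *UBE2M* and *ZNF324* were among those that fell, and *MZF1*, *RN7SL693P*, *ZNF274*, *ZNF8* and *ZSCAN18* rose with Luc *TRA2B* KO, and *ERVK3-1*, *TRIM28* and *UBE2M* rose with Luc *TRA2A* KO. In the comparison that called *A1BG*, TRA2B-OE Control KO against Luc Control KO, 0 of 25 kept neighbours were called by limma against 4.31% of all genes, and 4 had an unadjusted p under 0.05. *TRA2A* KO under TRA2B-OE gave 4 called neighbours in LN319 (*ERVK3-1*, *MZF1-AS1*, *TRIM28* and *UBE2M*, all higher) and 2 in LN229 (*ERVK3-1* and *ZNF274*, both higher), against 2.77% and 6.07% of all genes. These small counts changed with the processing, from 5 to between 2 and 3 for LN319 Luc *TRA2A* KO under 4 settings, and to 0 for *TRA2A* KO under TRA2B-OE in both lines without a filter or with only the compared groups. *MZF1-AS1* was lower in TRA2B-OE *TRA2A* KO than in Luc *TRA2A* KO in both lines, by 0.36 in LN229 and 0.49 in LN319.

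**Figure D4:**
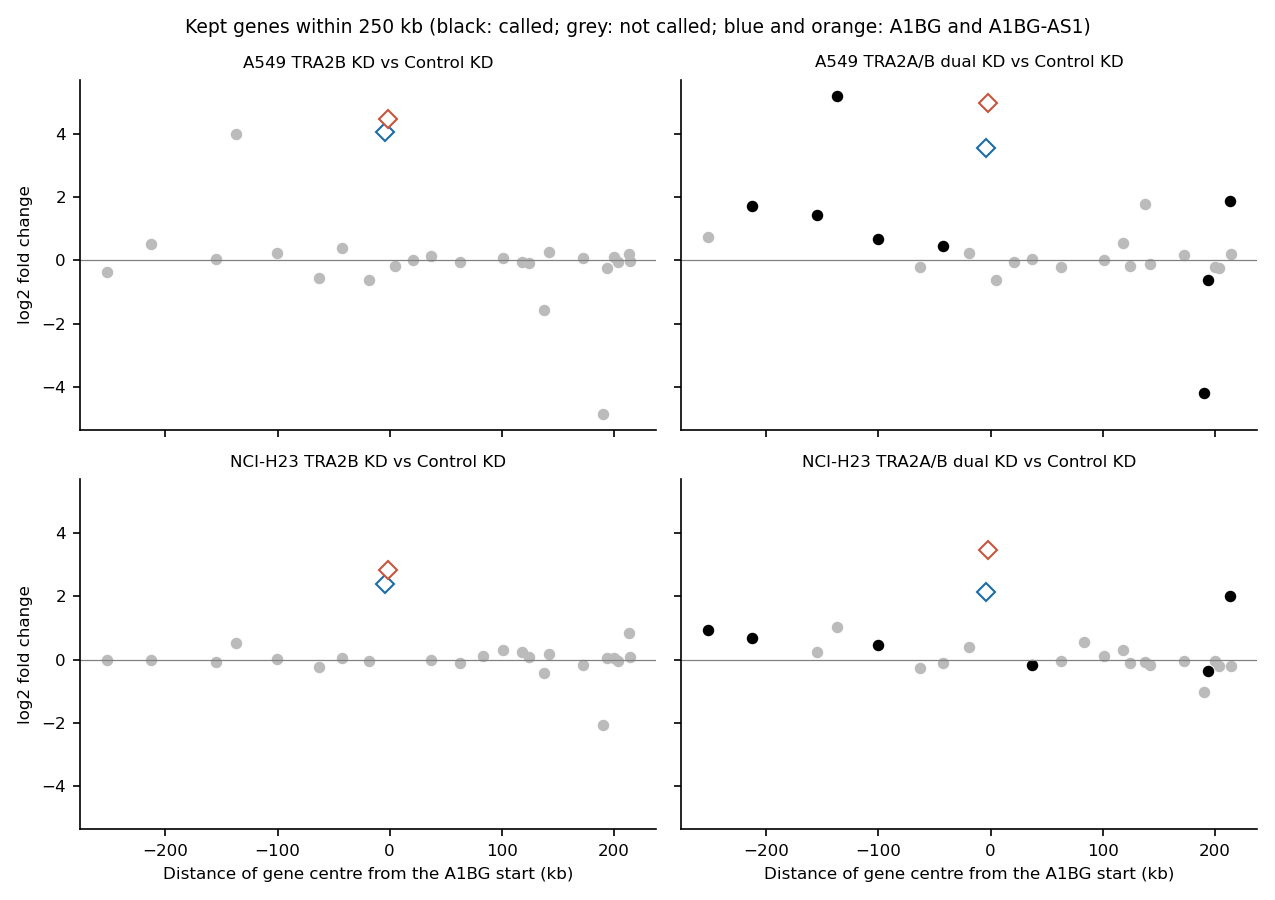
Log2 difference from Control KD against the distance of the gene centre from the *A1BG* start in kb, for *TRA2B* KD and dual KD in A549 and NCI-H23, with called genes in black, others in grey and *A1BG* and *A1BG-AS1* as blue and orange diamonds. With *TRA2B* KD both diamonds stand above 2 in a window where 0 neighbours were called (0.341% and 0.196% of all genes), and with dual KD 8 (A549) and 6 (NCI-H23) neighbours were called (30.6% and 43.2% of all genes).

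Other pairs of a gene and its named antisense RNA gave a frame for the joint movement. Of 1007 such pairs, 239 besides *A1BG* were kept in A549 and 232 in NCI-H23. With dual KD, 11 of these 239 pairs in A549 and 16 of these 232 in NCI-H23 had both genes called and higher. Pairs called in opposite directions numbered 9 and 23. Of all genes 30.6% and 43.2% were called in these comparisons, so some pairs with both genes called are to be found at that rate alone. With *TRA2B* KD, 0 of the other pairs in either line had both genes called and higher, where 0.341% and 0.196% of all genes were called. With dual KD the pairs of *PDCD4* and *ZBTB11* had both genes called and higher in both lines. Over the other pairs, the median log2 difference of the antisense members with dual KD was 0.66 in A549 and 0.60 in NCI-H23, against 0.08 and -0.01 for their sense partners. With *TRA2B* KD those medians were 0.35 and 0.11 for the antisense members and -0.01 in both lines for the sense partners.

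*A1BG* belongs to the proteins that the liver secretes into plasma, so 46 genes of that kind were counted. With *TRA2B* KD, limma called 0 of 20 kept genes in A549 and 0 of 11 in NCI-H23, against 0.341% and 0.196% of all genes, while 5 and 0 had an unadjusted p under 0.05. Their median log2 differences were 0.43 and -0.23, against 0.03 and 0.00 over all genes. With dual KD 2 of 20 rose and 7 fell in A549, against 30.6% of all genes called, and 3 of 11 rose and 2 fell in NCI-H23, against 43.2%. *CLU*, a secreted chaperone, rose in both lines (0.73 and 0.36 on the log2 scale). In A549 *FGA*, a fibrinogen chain, rose by 0.93, while *FGB*, another fibrinogen chain, fell by 1.68, and *VTN*, *ITIH2*, *APOE*, *C5*, *C3* and *AMBP* fell by 0.86 to 1.69. In NCI-H23 *SERPINC1*, which encodes antithrombin, rose by 3.19, to 4.30, 5.07 and 4.90 TPM from 0.0795, 0.476 and 1.01 TPM, *APOE* rose by 0.57, and *F10* and *SERPING1* fell by 0.98 and 1.48. In LN319 TRA2B-OE Control KO, where *A1BG* was called, 3 of 15 kept genes rose and 0 fell against Luc Control KO, where 4.31% of all genes were called, namely *HPX*, which binds haem, by 1.20, *A2M*, a protease inhibitor, by 0.84, and *APOE*, a lipid carrier, by 0.51. *CRISP3*, whose product binds A1BG protein, did not exceed 0.183 TPM in any lung library.

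Markers of other cell types were read beside these values. Of the hepatocyte markers *ALB*, *APOA1*, *TTR* and *HNF4A*, the first 3 stayed at or below 0.650 TPM in every A549 and NCI-H23 library. The 4 summed to 14.3 to 33.4 TPM in A549 Control KD, 13.2 to 17.1 with *TRA2B* KD and 3.71 to 4.10 with dual KD, nearly all of it *HNF4A*, and to at most 0.666 TPM in NCI-H23. *KRT19*, a keratin of simple epithelia, moved with *A1BG* in A549, at 5.37 to 6.58 TPM in Control KD, 19.3 to 22.5 TPM with *TRA2B* KD and 21.4 to 26.7 TPM with dual KD. The sum of the 5 epithelial markers, nearly all of it *KRT8* and *KRT18*, did not, at 5400 to 5822 TPM in Control KD, 5230 to 5669 TPM with *TRA2B* KD and 4116 to 4331 TPM with dual KD. Taken singly, 1 of 5 was called higher and 0 lower with *TRA2B* KD in A549, where 0.341% of all genes were called. With dual KD 1 of 5 was higher and 4 lower in A549, and 0 of 4 kept were higher and 3 lower in NCI-H23. Of all genes 30.6% and 43.2% were called there. In NCI-H23 the epithelial markers summed to 1906 to 1971 TPM in Control KD, 2093 to 2264 TPM with *TRA2B* KD and 1371 to 1606 TPM with dual KD, without overlap. The glial markers summed to 4.17 to 8.15 TPM in A549 Control KD, 4.30 to 5.93 TPM with *TRA2B* KD and 2.10 to 2.75 TPM with dual KD, and over all NCI-H23 libraries to 2.93 to 5.01 TPM. The mesenchymal markers *VIM*, *FN1* and *CDH2* summed to 1298 to 1601, 1217 to 1281 and 1054 to 1151 TPM in A549 and to 1595 to 1625, 1628 to 1700 and 1135 to 1277 TPM in NCI-H23. With dual KD 2 of the 3 in A549 and 1 in NCI-H23 were called lower, where 30.6% and 43.2% of all genes were called, so that these small counts say little. Mitochondrial transcripts took 17.3 to 20.5% of TPM with *TRA2B* KD and 18.005 to 21.6% in Control KD of A549, and 17.8 to 19.3% against 23.1 to 31.9% in NCI-H23, and the part of these differences in the levels of the pair was not tested.

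A few markers also differed in the LN319 comparison that called *A1BG*, where 4.31% of all genes were called. The 1 kept lung marker and 1 of 3 kept glial markers were called. Of the other kept markers, 0 of 4 epithelial, 0 of 3 mesenchymal and 0 of 1 hepatocyte markers were called. *NKX2-1*, a transcription factor of lung, thyroid and forebrain, was at 6.92 to 9.13 TPM in Luc Control KO and at 13.8 to 20.2 TPM in TRA2B-OE Control KO, a rise of 0.94 on the log2 scale (limma adjusted p = 0.0023). *SOX2*, a factor of neural stem cells, fell by 0.27, and was the 1 of 3 kept glial markers that was called. Mitochondrial transcripts took 12.1 to 12.8% of TPM in Luc Control KO and 13.5 to 14.7% in TRA2B-OE Control KO, without overlap. The part of these differences in the *A1BG* level was not tested.

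Likeness of pattern to *A1BG* was measured as Pearson's r over the 54 libraries, on log2(scaled TPM + 0.1) less the mean of the cell line, among 13361 genes kept in all lines. The 5 genes most alike were *FBXO44* (r = 0.863), *FBXO2* (r = 0.854), *STAT6* (r = 0.811), *SPEG* (r = 0.786) and *SNAP25* (r = 0.752). Over the 39 libraries of the 3 lines that kept *A1BG-AS1*, that gene was 5th of 13698 (r = 0.845), and *FBXO2* came first (r = 0.933). Within a line, *A1BG* and *A1BG-AS1* gave r = 0.865 over the 12 A549 libraries, 0.850 over the 12 of NCI-H23 and -0.05 over the 15 of LN229. The choice of both genes for higher levels in the same conditions fixes a high r in A549 and NCI-H23 and a high rank over the 39 libraries, so these values carry no test and support nothing.

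*FBXO44* and *FBXO2* encode F-box proteins, the substrate-binding parts of ubiquitin ligases, and are themselves neighbours on opposite strands: *FBXO2* (chr1:11637018-11655785, minus strand) and *FBXO44* (chr1:11654375-11663327, plus strand) overlap by 1411 bases. *FBXO44* went from a mean of 0.690 TPM in A549 Control KD to 22.2 with *TRA2B* KD and 27.5 with dual KD, and in NCI-H23 from 2.08 to 35.3 and 50.5 TPM. *FBXO2* went from 0.0577 to 8.27 and 7.28 TPM in A549 and from 2.29 to 17.3 and 21.6 TPM in NCI-H23. *STAT6*, the transcription factor of interleukin-4 signalling, went from 6.97 to 60.9 and 39.5 TPM in A549 and from 9.38 to 66.5 and 58.1 TPM in NCI-H23. Like *A1BG*, *STAT6* was lower with dual KD than with *TRA2B* KD in both lines, as was *SNAP25*, a vesicle fusion protein of neurons, at 16.8 against 6.63 TPM in A549 and 9.59 against 3.76 TPM in NCI-H23. *SPEG*, a kinase of striated muscle, stood at 6.78 and 6.90 TPM in A549 and at 4.10 and 1.77 TPM in NCI-H23. The glioma lines were less alike. In Luc *TRA2B* KO, where *A1BG* overlapped Luc Control KO, *FBXO44* and *SNAP25* were higher without overlap in both lines. The means of *FBXO44* were 26.9 against 17.1 TPM in LN229 and 77.0 against 50.8 TPM in LN319. *STAT6* and *SPEG* were higher without overlap in LN319 only, and *FBXO2* overlapped in both lines. These genes were chosen for their likeness, so their values are a description.

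**Figure D5:**
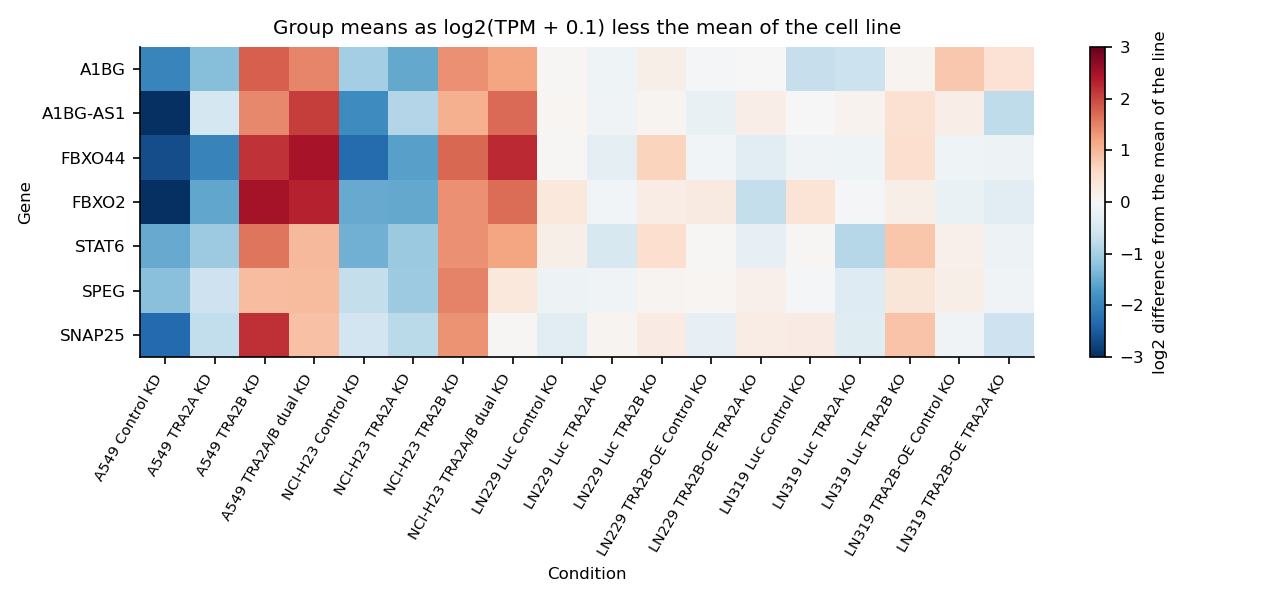
Group means of *A1BG*, *A1BG-AS1* and the 5 genes most alike as log2(TPM + 0.1) less the mean of the cell line, in colour, over the 18 conditions. All 7 rows are red in the A549 and NCI-H23 *TRA2B* KD columns and blue in both Control KD columns.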

How the data were processed

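The authors deposited gene-level TPM values, 1 table per cell line, for 54 libraries, all of whose columns were matched to a sample. Per the labels and the paper's methods, reads were quantified with kallisto 0.48.0 on Gencode v34 (GRCh38). TPM values keep no depth, so the reads behind a value are unknown and precision is given as the spread of replicates. TPM sums were 928908 to 964610 per library, scaling factors 0.896 to 1.17, and 0 libraries were identical. The lowest sum and the highest factor were both those of A549 Control KD replicate 3, a control in every A549 comparison. The members and gene lists were chosen with earlier results of these data known.

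limma 3.58.1 (R 4.3.3) was run separately for each line. The filter of 1 TPM or more in 4 or more libraries left 16405 (A549), 16293 (NCI-H23), 18490 (LN229) and 19303 (LN319) genes. TPM were rescaled by TMM without weights (trims of 30% and 5%), taken as log2(TPM + 0.1) and fitted with all libraries of the line, empirical Bayes moderation and a trend. This replaces the voom fit of the authors, which needs counts. Tests were two-sided, with Benjamini-Hochberg adjustment over all kept genes of a comparison, and a call at adjusted p under 0.05. Comparisons within a line share control libraries. The scripts were tested on simulated data. Levels are TPM as deposited, ± SD of 3 libraries. Named genes were the pair, *TRA2A* and *TRA2B*, called neighbours within 250000 bases and the nearest kept genes, and the 5 genes most like *A1BG*. Plasma protein genes were named where called in *TRA2B* KD or dual KD of the lung lines or in LN319 TRA2B-OE Control KO. Those called in other comparisons, among them *TRA2A* KO in both glioma lines, are neither counted nor named. *RPS15AP36* with *TRA2B* KD, *KRT19* and the other markers were named after their values were seen. Coordinates come from Gencode v44, the promoter from RefSeq on GRCh38.p14. Tables and figures used Python 3.11.15, pandas 2.3.3, numpy 2.4.6 and matplotlib 3.10.9. Alternatives were other pseudocounts, filters and scalings, a smaller fit, the replicate block, the larger fold threshold of the authors, and each library left out. Splicing was not analysed here, and 1 called neighbour is counted but not reported by name.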

Additional observations from a re-analysis of the deposited data

Results flagged for a closer look

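The mean of *A1BG-AS1* lay in opposite directions in the glioma lines under the same contrasts, and this difference was not tested. In TRA2B-OE *TRA2A* KO every LN229 library was above every library of TRA2B-OE Control KO (1.35 times, ratio of the means) and of Luc *TRA2A* KO (1.24 times), while every LN319 library was below them (0.117 times and 0.135 times). The LN319 values are at 0, 0 and 0.0443 TPM, against 0.106, 0.155 and 0.118 TPM in TRA2B-OE Control KO and 0.178, 0.0695 and 0.0810 TPM in Luc *TRA2A* KO, all near 0. Neither direction passed the threshold, with limma adjusted p = 0.238 and 0.520 in LN229 and, in LN319 fitted without a filter, 0.549 and 0.445.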

How the results depend on the processing

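Of 312 alternative values for the tested differences of *A1BG* and *A1BG-AS1*, 282 kept their direction and their side of the threshold. The call of *A1BG* in LN319 TRA2B-OE Control KO was lost without a filter (1.42), with quantile normalization (1.21) and in the fit of only the groups compared (1.44), and in each fit without 1 library (1.27 to 1.62). The number of tested comparisons that called *A1BG*, 1, became 0 under the first 3 of these settings and at a minimum of 5 TPM, where *A1BG* was not kept in LN319. The smaller fit and the omitted libraries leave fewer samples, and otherwise the cause was not tested. Directions turned only among differences that were not called. *A1BG-AS1* in LN229 Luc *TRA2B* KO (-0.01) became 0.01 without a filter (0.00931) and 0.03 with TPM as deposited (0.0349), *A1BG* in LN229 TRA2B-OE *TRA2A* KO against Luc *TRA2A* KO became -0.060 without a filter, and *A1BG* in LN319 Luc *TRA2A* KO became -0.051 with quantile normalization. With 1 library left out, *A1BG* in LN229 ran from -0.35 to 0.085 for Luc *TRA2A* KO, from -0.11 to 0.32 for Luc *TRA2B* KO, from -0.38 to 0.049 for TRA2B-OE Control KO, from -0.12 to 0.23 for TRA2B-OE *TRA2A* KO against its own control and -0.14 to 0.17 against Luc *TRA2A* KO, and from -0.060 to 0.37 for the difference of effects. *A1BG-AS1* in LN229 ran from -0.31 to 0.021 for Luc *TRA2A* KO and from -0.19 to 0.15 for Luc *TRA2B* KO, and *A1BG* in LN319 Luc *TRA2A* KO from -0.0026 to 0.30. With a replicate block the *A1BG* call in LN319 stayed at 1.41 (limma adjusted p = 0.0381) and no other call of the pair changed. The labels do not say that a number marks a shared culture, and of 96 pairs of libraries with the same number, 7 had correlated deviations above 0.1 (r from -0.15 to 0.21), so the numbers were not taken as pairs. Of 144 counts of called neighbours 22 moved by more than 1.5 times, among them that of A549 dual KD from 8 to 5 in the smaller fit, and the rest in LN229 and LN319, where the counts that moved were 0 to 5. With 15 of 108 alternatives the differences that chose the pair moved by more than 1 SD, and none changed sign. At a minimum of 5 TPM *A1BG-AS1* was kept in no line.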
